A study of Mus musculus with 6 samples.

Results

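Mitochondrial fatty acid oxidation was followed through 10 enzyme genes in bulk RNA sequencing of cerebellum samples from WT and KIKO mice. The genes were taken by name from the 31053 genes of the count table, and all 10 were found. They were *Cpt1a*, *Cpt1c*, *Cpt2*, *Acadvl*, *Acadl*, *Acadm*, *Hadha*, *Hadhb*, *Etfa* and *Etfdh*. KIKO (knock-in knock-out) mice are a model of Friedreich's ataxia, an inherited disease of mitochondria, and carry their alleles in all cells. WT mice were C57BL/6 littermates. The labels give the cerebellum and the genotype, and no age, sex or treatment. The study describes CD45+/CD11b+ cells isolated with magnetic beads from the cerebellum of 6-mo-old mice, whereas the labels name only the tissue, so that it is open whether the RNA came from sorted cells. There were 2 WT and 3 KIKO libraries, and WT replicate 3 was not analysed here.

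Long-chain fatty acids enter mitochondria as carnitine esters. Carnitine palmitoyltransferase 1 makes these esters at the outer membrane, a carrier takes them across the inner membrane, and carnitine palmitoyltransferase 2 turns them back into acyl-CoA. Acyl-CoA dehydrogenases of different chain length preference then take the first step of each round, the trifunctional protein takes the following steps for long chains, and the electrons pass through the electron transfer flavoprotein and its dehydrogenase, itself an iron-sulfur protein, to the respiratory chain. In the brain the pathway is known mainly from astrocytes.

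The study is concerned with mitochondrial metabolism in KIKO mice. In CD45+/CD11b+ cells, an enrichment analysis of its top down-regulated genes pointed to reduced fatty acid metabolism. The study gives more mice per group than there are libraries here, and it reports more genes past the thresholds used below. It also reports a lower mitochondrial membrane potential in these cells and, from single-cell data of the cerebellum, down-regulated mitochondrial oxidative genes. The question put to the data here was whether the oxidation genes differed in level between the genotypes, and no enrichment was run. No difference was detectable with so few libraries at this depth in the 9 members that could be tested. The thresholds were those of the study, an absolute log2 fold change (KIKO over WT) over 0.75 together with a p under 0.05 before adjustment, and the test was the quasi-likelihood test of edgeR. No member passed them, whereas 131 (1.2%) of all 10889 genes tested did, 78 higher (0.716%) and 53 lower (0.487%) in KIKO mice. This balance depended on the fit, with 96 higher and 40 lower with DESeq2, 109 and 162 with the replicate number as a block, and 305 and 364 without KIKO replicate 2. The number of members with an unadjusted p under 0.05 was also 0, and 0 members passed with DESeq2 or with limma. A log2 fold change above 0 was found in 5 of the 9 members and in 51.9% of all genes tested. The 9 members overlapped between the groups, while 16.7% of all genes tested did not, 8.2% with every KIKO library above and 8.51% with every KIKO library below WT. The median log2 fold change was 0.06 over the 9 members and 0.02 over all genes tested. Their smallest unadjusted p was 0.294, for *Cpt1a*, and the adjusted p (Benjamini-Hochberg, edgeR) was 1 for each. *Cpt2* had too few counts to be tested and had the lowest values in the KIKO libraries. The members were sparse: their summed counts were between 248 and 486 per library, or between 0.0237% and 0.0360% of all counts. Fewer cells of a type and less RNA per cell cannot be told apart in bulk libraries.

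The libraries held between 1013107 and 1351339 counts, and 3 counts, the floor used here, were worth between 2.28 and 3.04 normalized CPM, the usual unit of reads relative to library size, here scaled with TMM factors. This floor and the intervals of shares below cover counting error only. The labels do not say that each library came from a mouse of its own, so the p-values measure only the spread between these samples, which may be technical. KIKO replicate 2 stood apart: across the tested genes its log2 CPM correlated with the other libraries with r from 0.656 to 0.731, against 0.877 to 0.925 among the other 4. Markers of microglia were present in every library (all 10 detected, summed level 4739 to 5955 normalized CPM in WT and 4140 to 10590 in KIKO), as were those of neurons (10 genes, 2708 to 4328 and 2327 to 4560), of oligodendrocytes (6 genes, 5179 to 11840 and 4540 to 18860) and of the choroid plexus (6 genes, 12850 to 13970 and 7898 to 15590). The libraries thus held RNA of several cell types, and the levels of the members cannot be assigned to microglia alone.

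*Cpt1a* encodes the carnitine palmitoyltransferase that controls the entry of long-chain fatty acids in most tissues (chromosome 19, 3322334 to 3385733, GRCm38). Its level was 22.9 and 31.9 normalized CPM in WT replicates 1 and 2 and 9.46, 28.6 and 12.2 in KIKO replicates 1, 2 and 3. KIKO replicates 1 and 3 were below both WT libraries, but KIKO replicate 2 lay between them, so the groups overlapped. The WT mean was 27.4 ± 6.33 (SD, n = 2), and the KIKO mean was 16.7 ± 10.4 (SD, n = 3). The log2 fold change was −0.70 (standard error 0.63, 95% interval −2.14 to 0.73, adjusted p = 1 in edgeR's test). Without KIKO replicate 2, it was −1.36 (standard error 0.55) with an unadjusted p of 0.0193 and an adjusted p of 0.532, past the fold and p thresholds, as were 6.45% of all genes in that fit.

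*Cpt1c*, the isoenzyme of neurons, lies in the endoplasmic reticulum and has little transferase activity (chromosome 7, 44959372 to 44974851). It had the most reads of the 10 members, with 60.8 and 72.1 normalized CPM in the WT libraries and 81.2, 34.8 and 68.0 in the KIKO libraries. The highest and the lowest library were both KIKO, and the log2 fold change was −0.12 (standard error 0.45, 95% interval −1.16 to 0.92). Its exons share 366 bases with the antisense gene *6530437J22Rik*, which had 2 counts in all. *Cpt1b*, the isoenzyme of muscle, had 1 count in WT replicate 2 and 0 in the other libraries. Of its 3372 exon bases, 2744 are shared with *Gm44502* on the same strand, which had 0 counts. How reads in shared exons were counted is not given in the sources used here, so the count of *Cpt1b* may be too low.

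Within a library, the share of *Cpt1a* among the counted reads of *Cpt1a*, *Cpt1b* and *Cpt1c* does not depend on how libraries are scaled. It was 27.4% in WT replicate 1 (23 of 84 reads, exact 95% interval 18.2% to 38.2%) and 30.4% in WT replicate 2 (42 of 138, 22.9% to 38.8%). It was 10.4% in KIKO replicate 1 (12 of 115, 5.51% to 17.5%), 45.1% in KIKO replicate 2 (37 of 82, 34.1% to 56.5%) and 15.2% in KIKO replicate 3 (12 of 79, 8.10% to 25.0%). The KIKO libraries thus lay on both sides of the WT libraries. The mean share was 28.9% ± 2.16 in WT (SD, n = 2) against 23.6% ± 18.8 in KIKO libraries (SD, n = 3), a difference within the spread of the latter (exact permutation test, two-sided, p = 0.8, where 2 against 3 cannot give less than 0.1).

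**Figure D1:**
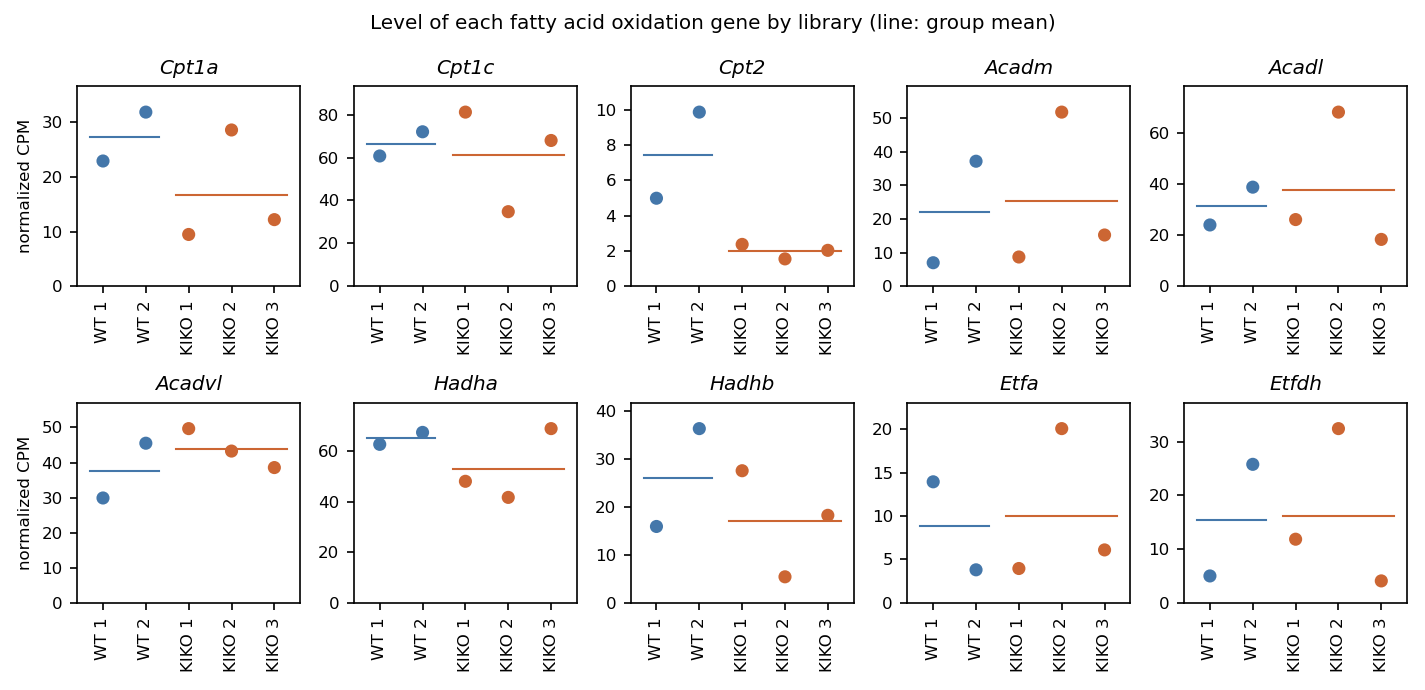
Normalized CPM (vertical axis, from 0, own scale per gene) of the 10 genes in each library (horizontal axis); blue points are WT, orange points KIKO, and lines are group means. The groups overlap in every gene except *Cpt2*, whose KIKO libraries lie between 1.55 and 2.37, and *Acadm*, *Acadl* and *Etfdh* are highest in WT replicate 2 and KIKO replicate 2.

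*Cpt2* encodes the transferase of the inner membrane, which every long-chain fatty acid needs after the carrier (chromosome 4, 107903981 to 107923610). It had 5 and 13 counts in WT replicates 1 and 2 and 3, 2 and 2 in KIKO replicates 1, 2 and 3, which is 4.98, 9.86, 2.37, 1.55 and 2.03 normalized CPM. All KIKO libraries were below both WT libraries and at or under 3 counts, and the gene failed the filter on low counts. Such a separation, with every KIKO library below WT, was seen in 8.51% of the genes that passed the filter. Pooled over libraries, the KIKO level was 0.255 of the WT level, with an interval from counting error alone of 0.0899 to 0.639, which leaves out the spread between mice. With all genes of at least 1 count in the fit, the log2 fold change of *Cpt2* was −1.87 with a standard error of 1.47 (unadjusted p = 0.205, adjusted p = 1 in edgeR's test). The difference was therefore not detectable in this fit, which estimates the spread across genes rather than from the replicates of *Cpt2* alone.

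The promoters of *Acadm*, *Etfa* and *Etfdh* are shown because all 3 share a motif. *Acadm* and *Etfdh* were highest in the same libraries, but *Etfa* was not. *Cpt1a* and *Acadl* were highest in those libraries too, and their windows lack the motif. A link between the motif and the levels was not tested. In RefSeq windows from 250 bases before to 50 after each start (GRCm38.p6), the core motif of NRF1, a factor that activates nuclear genes of mitochondrial proteins, was searched on both strands as GCATGCGC and its reverse complement GCGCATGC, which can overlap each other. It was in the windows of these 3 genes among the 10 members and in 2.71% of the 32851 windows. The stretches below run 5′ to 3′ on the minus strand, the strand of each gene, with the motif in capitals. They are the 250 bases before the start for *Acadm* (chr3:153944644-153944893) and *Etfa* (chr9:55512244-55512493), and, for *Etfdh*, 30 bases around the motif (chr3:79628876-79628905) that begin 138 bases before the RefSeq start. This start lies within the gene as GENCODE places it, so the stretch is inside the coordinates given for *Etfdh*.
Acadm: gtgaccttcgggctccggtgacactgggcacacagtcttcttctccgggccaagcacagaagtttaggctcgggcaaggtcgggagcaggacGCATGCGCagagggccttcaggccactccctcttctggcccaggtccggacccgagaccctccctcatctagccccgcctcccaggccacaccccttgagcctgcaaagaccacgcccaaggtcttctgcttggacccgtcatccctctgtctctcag
Etfa: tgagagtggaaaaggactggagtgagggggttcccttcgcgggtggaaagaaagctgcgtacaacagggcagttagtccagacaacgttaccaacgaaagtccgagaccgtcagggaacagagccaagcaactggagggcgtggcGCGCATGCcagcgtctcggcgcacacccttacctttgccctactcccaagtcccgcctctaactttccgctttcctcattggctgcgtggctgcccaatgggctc
Etfdh: tgcttctaggGCGCATGCGCacacgcgaga

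The direct repeat of AGGTCA with 1 free base between the copies, bound by PPAR, the class of receptors that fatty acids activate, was in 0 of the 10 windows and in 0.04% of all windows. The site TCAAGGTCA of estrogen-related receptors was also in 0 of the 10 and in 0.42% of all. The motif AGGTCA, which is part of both, was in 4 of the 10 windows, those of *Acadm*, *Cpt1c*, *Acadvl* and *Cpt1a*, and in 16.26% of all. These matches describe letters in the sequence only.

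The acyl-CoA dehydrogenases for very long, long and medium chains had log2 fold changes slightly above 0, all of them smaller than their standard errors. *Acadvl*, for very long chains (chromosome 11, 70010183 to 70015411), had 29.9 and 45.5 normalized CPM in the WT libraries and 49.7, 43.3 and 38.6 in the KIKO libraries. It varied least among the dehydrogenases, and its log2 fold change was 0.21 (standard error 0.43, 95% interval −0.77 to 1.20). Its exons share 1151 bases with *Dvl2* on the opposite strand, which had 455 counts in all, and the strand setting of the counting is not given in the sources used here, so reads in this stretch may be assigned to either gene.

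*Acadl*, for long chains (chromosome 1, 66830839 to 66863277), had 23.9 and 38.7 normalized CPM in the WT libraries and 26.0, 68.0 and 18.3 in the KIKO libraries. KIKO mice held both its highest and its lowest value, and the log2 fold change was 0.26 (standard error 0.63, 95% interval −1.19 to 1.71). *Acadm*, for medium chains (chromosome 3, 153922357 to 153944632), had 6.97 and 37.2 normalized CPM in the WT libraries and 8.68, 51.8 and 15.2 in the KIKO libraries. WT replicate 2 and KIKO replicate 2 were more alike in *Acadm* than either was to the other libraries of its genotype. Its log2 fold change was 0.18 with a standard error of 0.90 (95% interval −1.89 to 2.25).

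In the summed reads of *Acadvl*, *Acadl*, *Acadm* and the short-chain gene *Acads*, the share of *Acadm* was 8.97% (exact 95% interval 3.69% to 17.6%) in WT replicate 1 and 28.8% (22.2% to 36.3%) in WT replicate 2. It was 9.09% (4.63% to 15.7%), 30.6% (24.6% to 37.2%) and 17.2% (9.98% to 26.8%) in KIKO replicates 1, 2 and 3. The intervals of the libraries numbered 1 and of those numbered 2 did not overlap, in either genotype. The mean share differed between the genotypes by 0.0764 percentage points (exact permutation test, two-sided, p = 0.9). *Acads* took the opposite course, with 21.8% and 5.88% of these reads in the WT libraries and 11.6%, 3.65% and 18.4% in the KIKO libraries.

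*Hadha* and *Hadhb* encode the subunits of the trifunctional protein and start head to head on chromosome 5, with 85 bases between their starts in GENCODE. *Hadha* (30118304 to 30155162) had 62.8 and 67.5 normalized CPM in the WT libraries and 48.1, 41.7 and 69.0 in the KIKO libraries. The highest value was that of a KIKO library, and the log2 fold change was −0.30 (standard error 0.40, 95% interval −1.22 to 0.62). It was the only member besides *Cpt1a* whose fold change kept its sign with each library left out in turn. Its exons share 75 bases with *Garem2* on the opposite strand. *Hadhb* (30155248 to 30184593) had 15.9 and 36.4 normalized CPM in the WT libraries and 27.6, 5.41 and 18.3 in the KIKO libraries. KIKO replicate 2 was lowest, with 7 reads, and the log2 fold change was −0.62 (standard error 0.74, 95% interval −2.31 to 1.06).

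The stretch between the GENCODE starts of *Hadha* and *Hadhb* is shown because it separates both genes, whose reads did not keep a constant ratio. Its use by either gene was not tested. It is taken from the RefSeq promoter window of *Hadhb*, on the plus strand (GRCm38.p6, chr5:30155163-30155247), and begins 90 bases before the RefSeq start. The RefSeq starts of both genes lie inside the coordinates given for them, so they are farther apart than this stretch.
Hadha-Hadhb: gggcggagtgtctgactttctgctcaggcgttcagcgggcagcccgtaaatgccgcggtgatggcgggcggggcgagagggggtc

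The ratio of *Hadha* to *Hadhb* reads was 3.94 and 1.85 in WT replicates 1 and 2 and 1.74, 7.71 and 3.78 in KIKO replicates 1, 2 and 3. The share of *Hadha* in the reads of both was 88.5% in KIKO replicate 2 (exact 95% interval 77.8% to 95.3%) and 63.5% in KIKO replicate 1 (53.1% to 73.1%), 2 intervals that did not overlap. The mean ratio was 2.90 ± 1.47 in WT (SD, n = 2) against 4.41 ± 3.04 in KIKO libraries (SD, n = 3), a difference smaller than the SD of the KIKO libraries (exact permutation test, two-sided, p = 0.9).

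**Figure D2:**
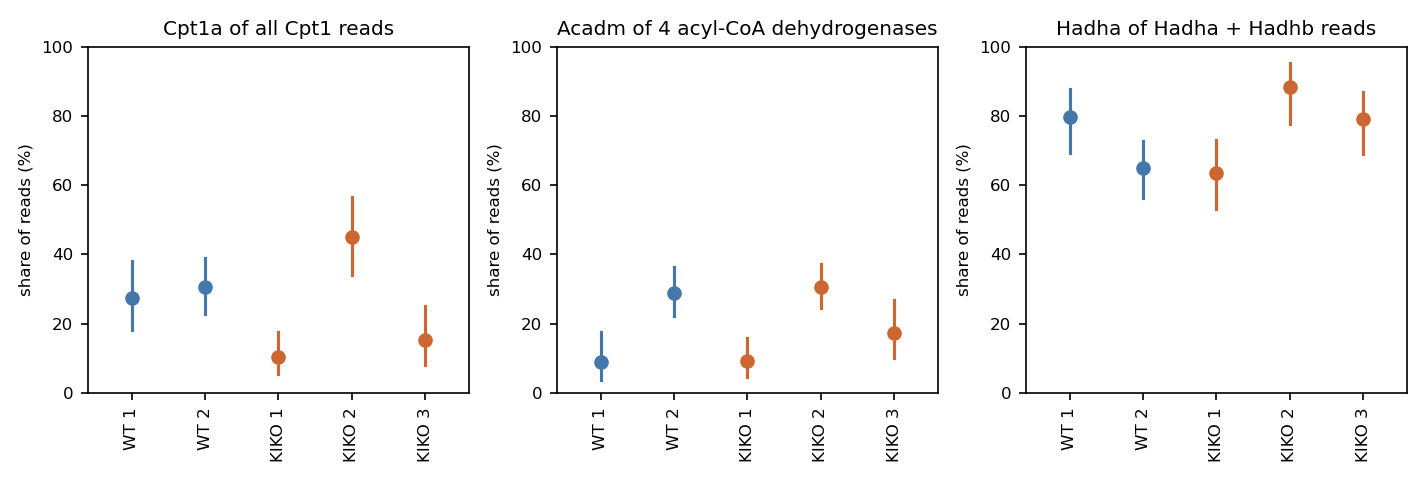
Share of reads in percent (vertical axis, 0 to 100) per library (horizontal axis, WT blue, KIKO orange) for *Cpt1a* among the *Cpt1* genes, *Acadm* among 4 acyl-CoA dehydrogenase genes, and *Hadha* among *Hadha* and *Hadhb*; bars are exact 95% intervals, which cover counting error only. The KIKO libraries span 10.4% to 45.1% in the first panel, and the *Acadm* share is highest in both libraries numbered 2, at 28.8% and 30.6%.

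*Etfa* encodes the alpha subunit of the electron transfer flavoprotein (chromosome 9, 55454508 to 55512243). It was sparse, with 14.0 and 3.79 normalized CPM in the WT libraries and 3.94, 20.1 and 6.09 in the KIKO libraries. Its counts were between 5 and 26, and the log2 fold change was 0.21 with a standard error of 0.997 (95% interval −2.07 to 2.49). *Etfb*, the beta subunit, had 30.9 and 49.3 normalized CPM in the WT and 33.1, 83.5 and 33.5 in the KIKO libraries, and the log2 fold change was 0.32 (standard error 0.55). *Etfdh*, the dehydrogenase that hands the electrons to ubiquinone (chromosome 3, 79603788 to 79629500), had 4.98 and 25.8 normalized CPM in the WT libraries and 11.8, 32.5 and 4.06 in the KIKO libraries. As in *Acadm*, the libraries numbered 2 were the high ones in both genotypes. The log2 fold change of *Etfdh* was 0.06 (standard error 0.96, 95% interval −2.14 to 2.26), and its exons share 278 bases with *4930579G24Rik*, which had 1 count in all.

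**Figure D3:**
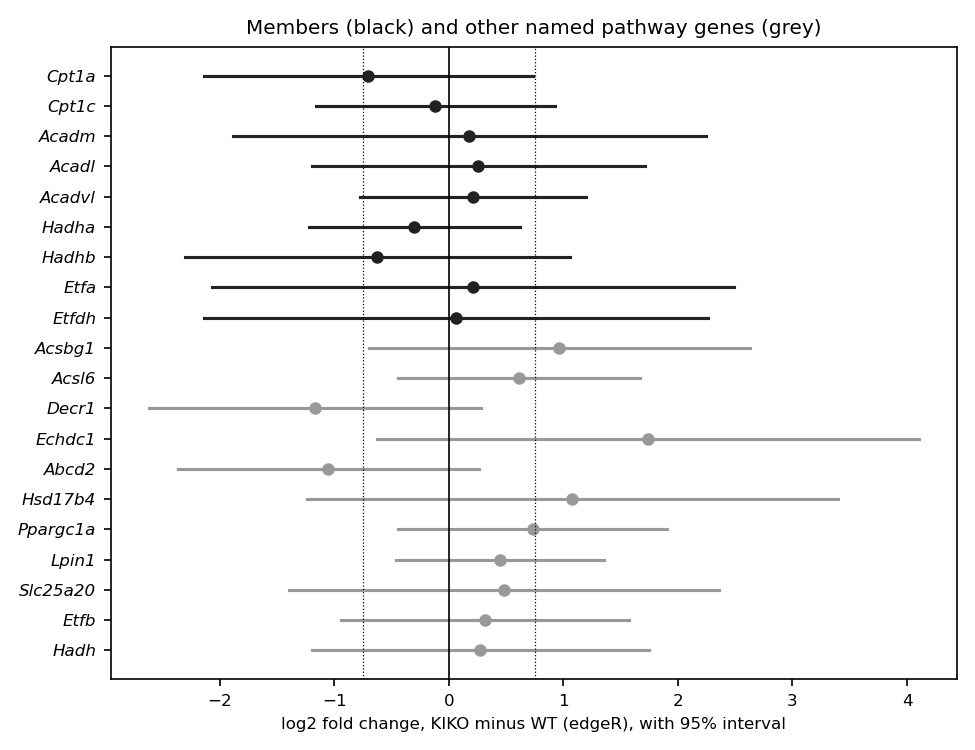
Log2 fold change of KIKO over WT from edgeR (horizontal axis; points) with 95% intervals (bars) for the 9 tested members in black and 11 other named pathway genes in grey; dotted lines mark 0.75 in size. Every interval includes 0, from *Cpt1a* at −0.70 to *Acadl* at 0.26 among the members.

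KIKO replicate 2 was the highest library in 4 and the lowest in 3 of the 9 tested members, beside 33.9% and 37.1% of all genes tested. In *Cpt1a*, *Acadl*, *Acadm* and *Etfdh*, 4 of the 9 tested members, WT replicate 2 and KIKO replicate 2 were both above the other 3 libraries, and in no member were both below. Among all genes tested, 18.3% had both above and 19.1% both below. The log2 fold change of these genes moved with the libraries in the fit. For *Acadm* it was 1.82 without WT replicate 2, −0.94 without KIKO replicate 2 and −0.57 without WT replicate 1, and for *Etfdh* it was 1.66, −0.95 and −0.68. Compared within a number, the ratio of KIKO to WT for *Acadm* was 1.24 between the libraries numbered 1 and 1.39 between those numbered 2, for *Etfdh* it was 2.38 and 1.26, and for *Acadl* it was 1.09 and 1.76. It was below 1 in both numbers for *Cpt1a* (0.413 and 0.898), *Hadha* (0.767 and 0.618) and *Cpt2* (0.475 and 0.157), and on both sides of 1 for the other 4 members. Without KIKO replicate 2, 6 of 8 tested members had a log2 fold change below 0 (median −0.35, −0.01 over all genes). Without WT replicate 1 it was 8 of the 9 members tested with all libraries (median −0.36, 0.06 over all genes). The balance was the other way without WT replicate 2, with 6 of 9 above 0 (median 0.09, 0.07 over all genes), and 5 of 9 were above 0 without KIKO replicate 1 (median 0.12) and without KIKO replicate 3 (median 0.30).

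**Figure D4:**
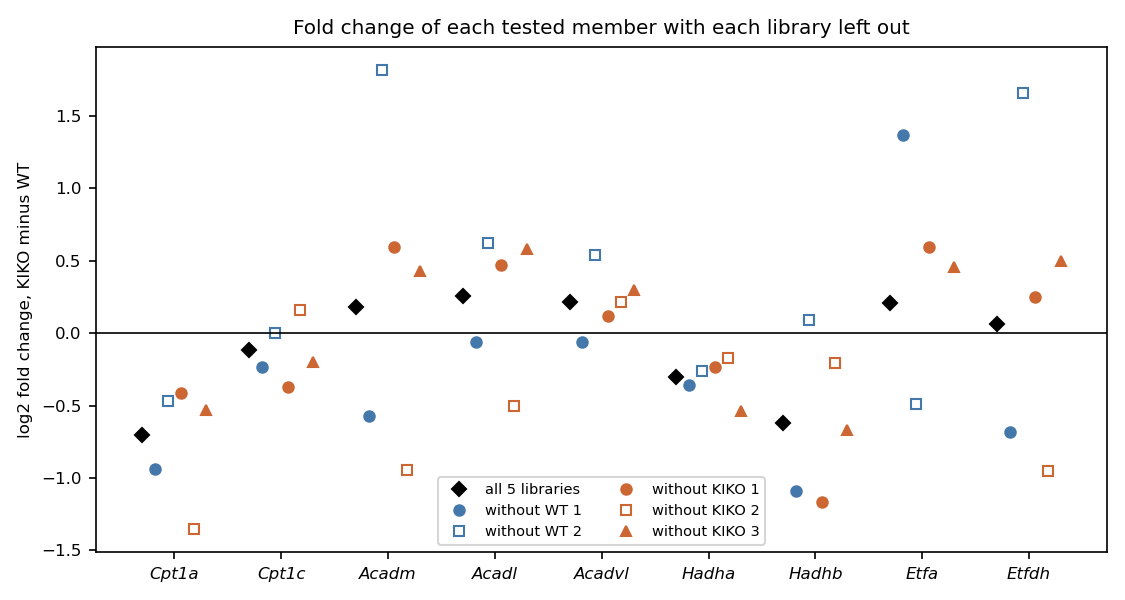
Log2 fold change of KIKO over WT (vertical axis) of the 9 tested members (horizontal axis) with all 5 libraries (black) and with each library left out (blue for a WT, orange for a KIKO library; open squares for the libraries numbered 2). *Acadm* goes from −0.94 to 1.82 and *Etfdh* from −0.95 to 1.66, while *Cpt1a* and *Hadha* stay below 0; *Etfa* could not be tested without KIKO replicate 2.

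Several lists of cell type markers were also highest or lowest in WT replicate 2 and KIKO replicate 2. The summed level of 6 oligodendrocyte markers was 11840 normalized CPM in WT replicate 2 and 18860 in KIKO replicate 2, compared with 4540 to 5803 in the other 3 libraries, and 4 of the 6 genes were higher in both. The 10 microglial markers summed to 5955 and 10590, compared with 4140 to 4967, and 6 of them were higher in both. The 10 neuronal markers went the other way, with 2708 and 2327 compared with 4277 to 4560, and 7 of them were lower in both. The 6 markers of the choroid plexus summed to 13970 and 15590, compared with 7898 to 12850, and 3 of them were higher in both. The 8 markers of astrocytes and Bergmann glia summed to 1233 and 1026, compared with 560.8 to 910.2, and 2 of them were higher and 1 was lower in both. No marker of these lists was at 0 in every library. Between the genotypes, 2 markers passed the thresholds, as did 1.2% of all genes tested. *Gfap*, 1 of 6 tested markers of astrocytes and Bergmann glia, had a log2 fold change of 1.33 (edgeR's adjusted p = 1). *Kdr*, 1 of 6 tested markers of endothelial cells and pericytes, had −1.47 (edgeR's adjusted p = 1). Both were named after their values were seen. Other genes of these lists went either way, with −0.26 for *S100b* and 0.98 for *Gjb6*, and 0.36 for *Cldn5* and −0.54 for *Rgs5*. The part of these cell types in the levels of *Acadm*, *Acadl*, *Etfdh* and *Cpt1a* was not tested.

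**Figure D5:**
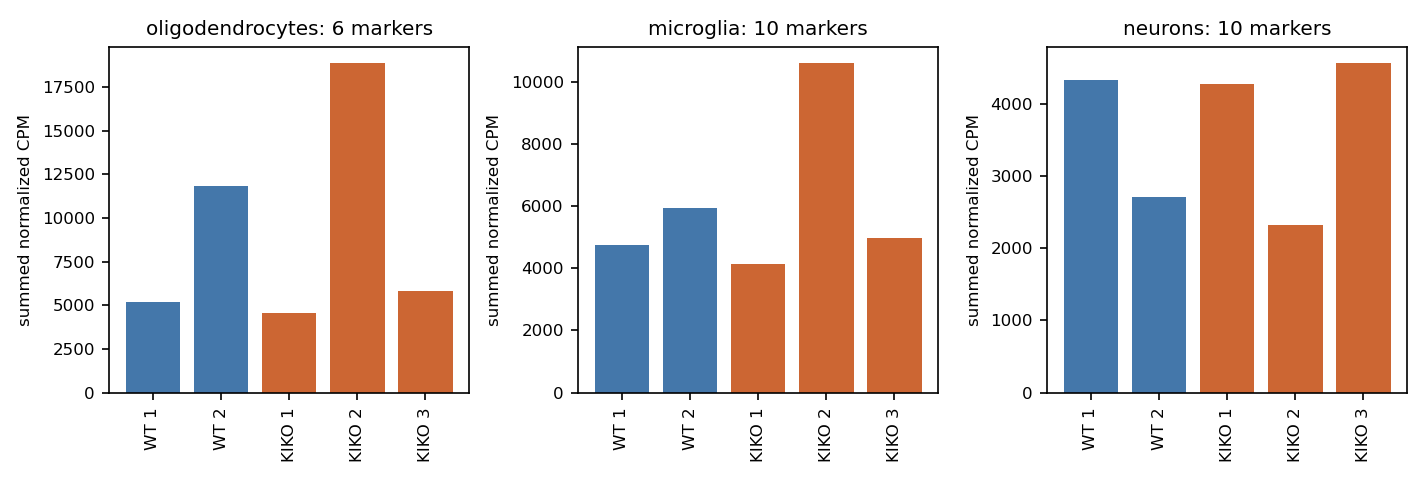
Summed normalized CPM (vertical axis, from 0) of the markers of oligodendrocytes, microglia and neurons in each library (horizontal axis; WT blue, KIKO orange). Oligodendrocyte and microglial sums are highest and neuronal sums lowest in WT replicate 2 and KIKO replicate 2.

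Levels of the members can be set side by side only per length of their exons. On the scale of normalized CPM per kilobase, as a mean over the 5 libraries, *Acadl* had 17.4 ± 9.93 (SD, n = 5), *Acadvl* 15.4 ± 2.82 and *Cpt1c* 11.3 ± 3.14. *Hadha* with 6.62 ± 1.399, *Acadm* with 6.12 ± 5.03, *Etfa* with 5.22 ± 3.92 and *Hadhb* with 3.14 ± 1.79 followed. *Cpt1a* with 2.75 ± 1.29, *Etfdh* with 2.11 ± 1.70 and *Cpt2* with 1.74 ± 1.45 were lowest. For all 9 pairs of neighbours in this order, the ranges over the libraries overlapped, so no step between neighbours exceeded the spread. The labels name a stranded kit and the study a digital mRNA service, and if the latter counts 1 end of each transcript, levels do not scale with length.

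*Cpt1c*, the member with the most reads, had the most similar pattern to *Ahcyl1*, *Emc3* and *Epc1* among 10888 other tested genes. The root mean square differences were 0.04, 0.06 and 0.06 in centred log2 CPM over the 5 libraries, and the median over all genes was 0.65. These genes were picked as the closest, so values under the median were fixed by the choice. *Ahcyl1* had 114.6 and 132.7 normalized CPM in the WT and 160.9, 64.1 and 130.9 in the KIKO libraries, lowest in KIKO replicate 2 like *Cpt1c*.

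The rest of the pathway was read from 4 lists with 84 genes in all, of which 66 could be tested and 18 had too few counts. None passed the thresholds, in either direction, with edgeR, DESeq2 or limma, and the smallest unadjusted p was 0.101 with edgeR. The median log2 fold change was 0.46 over 12 tested genes of the carnitine shuttle and acyl-CoA activation (9 above 0). It was 0.13 over 21 genes listed under other mitochondrial beta-oxidation and electron transfer (11 above 0). That list also holds related enzymes such as *Ivd*, *Gcdh* and *Echdc1*. Over 14 peroxisomal genes the median was 0.09 (8 above 0) and over 19 regulators −0.03 (8 above 0), beside 0.02 over all genes tested. The groups were separate in 7 of the 66 genes, 4 higher and 3 lower in KIKO, beside 16.7% of all genes tested.

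In the shuttle list, the carrier *Slc25a20* had 5.98 and 20.5 normalized CPM in the WT libraries and 6.31, 24.7 and 25.4 in the KIKO libraries. Its log2 fold change was 0.48 (standard error 0.82). The acyl-CoA synthetase genes *Acsbg1* and *Acsl6* had the smallest p of this list, 0.218 and 0.219 unadjusted, with log2 fold changes of 0.97 (standard error 0.73) and 0.61 (standard error 0.46). *Acsbg1*, a synthetase of astrocytes, had 8.97 and 22.0 normalized CPM in the WT and 19.7, 55.6 and 16.2 in the KIKO libraries, and KIKO replicate 2 stood well above the rest.

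Among the genes listed with the other beta-oxidation enzymes, *Decr1* and *Echdc1* had the smallest p. *Decr1*, the dienoyl-CoA reductase needed for unsaturated fatty acids, had 18.9 and 19.7 normalized CPM in the WT libraries and 7.10, 8.50 and 10.2 in the KIKO libraries. Every KIKO library was thus below both WT libraries, and the log2 fold change of −1.17 (standard error 0.63, 95% interval −2.61 to 0.28) lay between −1.30 and −1.04 with each library left out. It had an unadjusted p of 0.101 and an adjusted p of 1 in edgeR's test and did not pass. *Echdc1*, which clears ethylmalonyl-CoA, had 0.996 and 4.55 normalized CPM in the WT and 12.6, 11.6 and 5.07 in the KIKO libraries, a log2 fold change of 1.74 (standard error 1.03). WT replicate 1 held 1 read of it, and its exons share 3129 bases with *Rnf146* on the opposite strand. For *Hadh*, which acts on shorter chains, the log2 fold change was 0.28 (standard error 0.64).

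In the peroxisomal list, *Abcd2*, a transporter of very long chains, had 27.9 and 78.1 normalized CPM in the WT and 14.98, 31.7 and 30.4 in the KIKO libraries. WT replicate 2 was far above the other 4, and the log2 fold change was −1.05 (standard error 0.58, unadjusted p = 0.104). The log2 fold change was −1.61 without WT replicate 1 and −0.14 without WT replicate 2. Without KIKO replicate 2 it was −1.27 and passed the thresholds, as did 6.45% of all genes in that fit. *Hsd17b4*, the multifunctional enzyme of peroxisomes, had 126.0 normalized CPM in KIKO replicate 2 and between 10.2 and 35.7 in the other libraries, and its log2 fold change went from 1.08 to −0.75 without that library.

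Among the regulators, *Ppargc1a*, a coactivator of mitochondrial genes, had 15.9 and 24.3 normalized CPM in the WT libraries and 39.4, 24.0 and 37.6 in the KIKO libraries. KIKO replicate 2 lay just below WT replicate 2, and the log2 fold change was 0.73 (standard error 0.51, unadjusted p = 0.190). Without KIKO replicate 2 it was 0.91 (unadjusted p = 0.0489, adjusted p = 0.605 in edgeR's test). *Lpin1*, a coactivator and phosphatidate phosphatase, had 50.8 and 57.6 normalized CPM in the WT and 69.4, 93.5 and 58.9 in the KIKO libraries. These groups did not overlap, but the log2 fold change of 0.45 (standard error 0.40) did not pass. *Ppara*, the receptor that activates fatty acid oxidation in liver, was near the floor, with 4 and 0 counts in the WT and 0, 0 and 2 in the KIKO libraries. Without KIKO replicate 2, *Acbd5* and *Acsl4* also passed the thresholds, as did 6.45% of all genes in that fit. Their log2 fold changes were 0.79 and −0.94, and these genes were named after their values were seen.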

How the data were processed

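Libraries were named by genotype and number from the labels. Before deposit, the authors used Trimmomatic for trimming, HISAT2 for alignment (mm10) and featureCounts for counting, and the deposited values are raw counts per gene. They also deposited log2 values of counts scaled by DESeq2. The annotation and the strand setting are not given in the sources used here. The files hold 2 further columns named for butyrate that match no sample label and were not used.

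Gene names and positions came from GENCODE M21 (GRCm38, the build called mm10), which named 31011 of 31053 identifiers. Of the genes written into the pathway lists, *Hsd17b8* was not matched and was left out. The fit used edgeR 4.0.16 (R 4.3.3): filterByExpr (minimum count 10, minimum total 15), TMM factors and the quasi-likelihood test over 10889 genes, two-sided, with Benjamini-Hochberg adjustment. The standard error in edgeR fits was the absolute log2 fold change divided by the square root of the F statistic of that test. Intervals of fold changes are fold change ± t × standard error and are therefore approximate. Promoter windows came from RefSeq.

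The genes named were the 10 members, the 2 genes with the smallest p of each pathway list, 6 genes fixed by name (*Ppara*, *Ppargc1a*, *Slc25a20*, *Cpt1b*, *Etfb* and *Hadh*), genes with exons overlapping a member and the 3 genes most like the member with the most reads. A check of the targeted gene is not reported here. The members and lists were chosen with earlier results of these data known. Alternatives were RLE factors, library size alone, looser and stricter filters, DESeq2 1.42.0, limma 3.58.1 with trend on the authors' log2 values, the replicate number as a block, and each library left out.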

Additional observations from a re-analysis of the deposited data

How the results depend on the processing

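The number of genes past the thresholds was 131. It was 383 with all genes of at least 1 count, 271 with the replicate number as a block, and between 56 (without WT replicate 1) and 669 (without KIKO replicate 2) with each library left out. The number with an adjusted p under 0.05 was 0, but 1 with all genes of at least 1 count and between 0 and 5 with each library left out. The number of members past the thresholds was 0 in the fits that kept both WT libraries, except without KIKO replicate 2, where it was 1. For the other pathway genes it was also 0 in those fits, except 4 without KIKO replicate 2, where 6.45% of all genes passed. The median log2 fold change of the members was between −0.36 and 0.30 with each library left out, −0.12 over the 5 members with at least 10 counts in every library, and 0.32 with the replicate block. The difference in the *Cpt1a* share ranged from −16.1 to 1.25 percentage points and that in the *Hadha* to *Hadhb* ratio from −0.14 to 2.85.

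Signs of fold changes turned only when a library was left out. The ranges were −0.37 to 0.16 for *Cpt1c*, −0.94 to 1.82 for *Acadm*, −0.50 to 0.63 for *Acadl*, −0.061 to 0.54 for *Acadvl*, −1.16 to 0.093 for *Hadhb*, −0.49 to 1.37 for *Etfa*, −0.95 to 1.66 for *Etfdh*, −0.75 to 1.96 for *Hsd17b4*, −0.14 to 1.61 for *Slc25a20*, −0.28 to 0.67 for *Etfb*, −0.028 to 0.59 for *Hadh*, −0.34 to 0.23 for *Ahcyl1*, −0.32 to 0.16 for *Emc3* and −0.48 to 0.14 for *Epc1*. The cause was not tested. A fit without 1 WT library takes the spread of the lone WT library from the KIKO libraries.

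The libraries share replicate numbers only. Deviations from the group means correlated across genes with r of 0.17 and 0.22 for the same-numbered libraries, and with 0.21 for KIKO replicate 3 and WT replicate 1. With only 2 WT libraries, their deviations mirror each other, and each r returns with the opposite sign for the other WT library. These values are therefore not independent and cannot decide whether the numbers mark pairs. With the replicate number as a block, no member or other pathway gene passed. *Cpt2*, under the filter with all libraries, had a log2 fold change of −1.87 with all genes of at least 1 count and −2.27 (unadjusted p = 0.182 in edgeR's test) without WT replicate 1. The members had between 2 and 103 counts per library, and the biological coefficient of variation common to all genes was 0.468.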
